A study of Mus musculus with 12 samples.

Results

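Serpins are a large family of proteins, most of which block serine or cysteine proteases. The family was taken here as the genes whose name on the array starts with Serpin, each read from 1 spot, the one with the highest mean over all 12 arrays. This gave 63 genes on 79 spots, out of 26228 genes with a name on the array, and 14 of the 63 had more than 1 spot. RNA from 2 tissues, the liver and the lung, of female B6C3F1/Nctr mice had been labelled with Cy3 and hybridised to 12 single-colour Agilent arrays in a study of acrylamide, a small reactive amide. The 4 groups of 3 arrays were untreated liver (control 1, 3 and 4), liver with acrylamide at 0.7 mM (27, 29 and 30), untreated lung (control 4, 5 and 6) and lung with acrylamide at 0.7 mM (28, 29 and 30), named by the numbers in the titles. The sources used here give no age, no route and no duration of exposure. Nothing says whether each array of a group is a different animal, so the p-values reflect spread among these samples only, which may be technical.

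A serpin traps its target protease by offering an exposed loop as bait: the protease cuts the loop and is locked in a covalent complex, so that both molecules are used up. The liver is the main source of the serpins of blood plasma, which hold back neutrophil elastase, thrombin, plasmin and the complement proteases. Clade B serpins stay inside the cell, where many guard leukocytes and epithelia against their own granule and lysosomal proteases. Some members inhibit nothing and act as hormone carriers or, like the collagen chaperone HSP47, as folding helpers.

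Levels are log2 intensities minus the 75th percentile of their own array, so a difference of 1 unit is a 2-fold difference in intensity. A signal was taken to be above background when it passed, on the same array, the 95th percentile of 308 negative control spots. The 75th percentile ranged from 294.5 to 621.5 intensity units for liver and from 839.4 to 1376 for lung, and liver acrylamide 30 had the highest background limit, 16.77 against 2.35 to 4.45 on the others. The tissue entry of all 12 arrays reads liver, but titles and source names put 6 of them in lung. The mean of 11 alveolar type 2 markers minus that of 12 hepatocyte markers was -10.02 ± 0.13 log2 units (SD, n = 3) in liver controls, -8.83 ± 0.92 in liver acrylamide, 7.30 ± 0.47 in lung controls and 6.89 ± 0.49 in lung acrylamide, so the titles were followed. Liver acrylamide 27 and 29 carried more alveolar type 2 marker signal than the other liver arrays: the list's mean was -0.47 and -0.99 on them, and -2.42 to -1.94 on the other 4. Lung acrylamide 29 and, less so, lung control 4 carried more signal of the squamous epithelial list, which holds keratins, Trp63 and Dsg3. The list means were 0.21 and -1.73 on them against -4.75 to -3.91 on the other 4 lung arrays. The titles of all liver arrays start with 1 number and those of all lung arrays with another, the labels do not say what it stands for, and whatever it marks cannot be told apart from tissue.

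Of the 63 genes, 39 were above background on all 12 arrays, 41 on all 6 liver arrays and 47 on all 6 lung arrays. Serpinb9b and Serpinb9g were above background on no array, and Serpinb3b, Serpinb9c and Serpinb9d on 1 or 2 arrays. These 5 entered no test. In the RefSeq table of GRCm38.p6, 24 members lie on chromosome 12, most of them in clade A, 15 on chromosome 13 and 14 on chromosome 1, most of them in clade B.

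**Figure D1:**
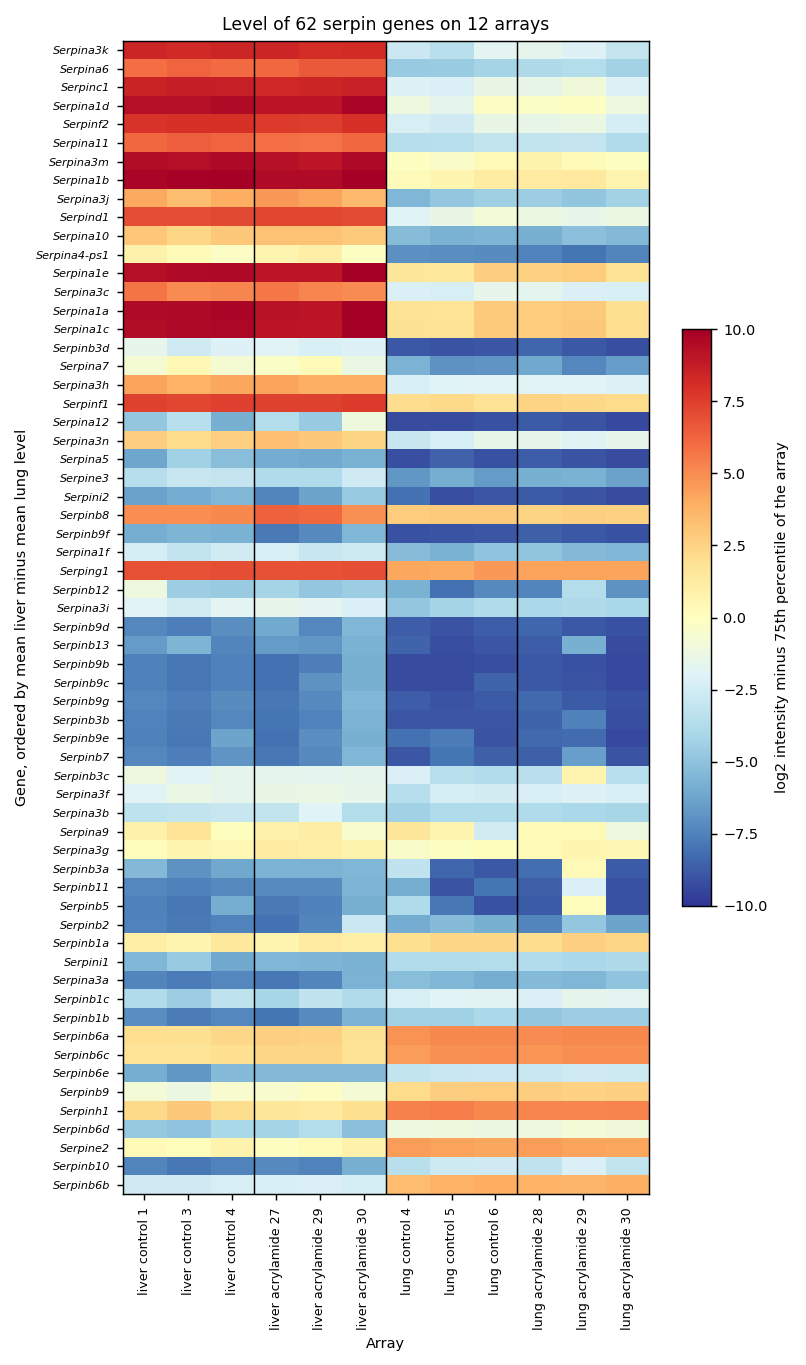
Level of 62 serpin genes (rows, ordered by mean liver minus mean lung level) on each of the 12 arrays (columns), as log2 intensity minus the array's 75th percentile. Genes at the top, such as Serpina3k, Serpina6 and Serpinc1, are high on all 6 liver arrays, and those at the bottom, such as Serpinb6b, Serpinb10 and Serpine2, on all 6 lung arrays.

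The first comparison set lung against liver. In controls 16 of 55 tested members were higher in lung and 34 lower (limma, adjusted p under 0.05), where 32.0% of all 22426 genes were higher and 42.4% lower. The median of the tested members was -2.66 log2 units, lung minus liver, against -0.27 over all genes. On the acrylamide arrays, which are separate arrays, 15 of 51 members were higher in lung and 29 lower, against 31.3% and 41.5% of 22106 genes, with medians of -2.58 and -0.25. Of the 50 members tested in both, 15 were called higher and 28 lower both times. In a whole tissue, more cells of a type and more RNA per cell cannot be told apart, which holds for every difference below. The direction went with the clade: in controls 22 of 25 clade A members were lower in lung and 1 higher, while 11 of 19 tested clade B members were higher and 5 lower. By chromosome, 21 of the 24 members on chromosome 12 were lower in lung, and 9 of the 11 tested members on chromosome 13 were higher. Quantile scaling moved the median of all genes to 0.02 in controls and 0.07 on acrylamide arrays.

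**Figure D2:**
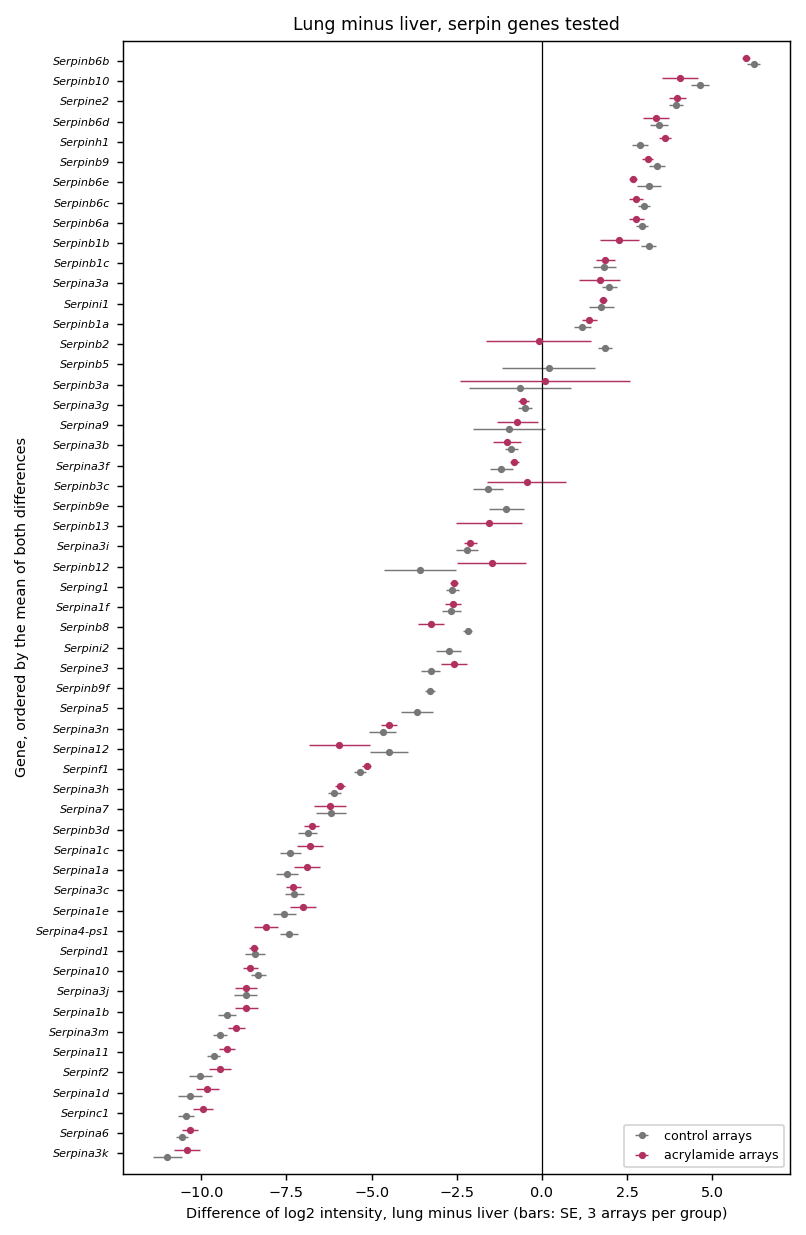
Lung minus liver difference in log2 intensity for the tested serpin genes, in control arrays (grey) and in acrylamide arrays (red), with bars for the SE over 3 arrays per group. The difference runs from -11.00 for Serpina3k to 6.21 for Serpinb6b in controls, and grey and red points of a gene mostly lie close together.

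Alpha-1 antitrypsin, the plasma inhibitor of neutrophil elastase, has 5 gene copies in the mouse reference, Serpina1a to Serpina1e, and all were among the brightest serpin spots of liver. The copies in these mice were not counted. Serpina1b stood at 9.76, 9.89 and 10.02 on liver controls 1, 3 and 4 and at 9.49, 9.46 and 10.45 on liver acrylamide 27, 29 and 30. On lung controls 4, 5 and 6 it stood at 0.17, 0.57 and 1.19, and on lung acrylamide 28, 29 and 30 at 1.27, 1.37 and 0.70. The tissues did not overlap. The difference, lung minus liver, was -9.25 ± 0.27 log2 units (SE, adjusted p = 9.17e-07) in controls and -8.68 ± 0.34 (adjusted p = 7.55e-06) on acrylamide arrays. Serpina1a, Serpina1c, Serpina1d and Serpina1e differed by -7.49, -7.39, -10.32 and -7.56 in controls, each past the threshold.

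The Serpina1b spot was the brightest of all gene spots on each of the 6 liver arrays, at 411078 to 445733 intensity units. The spots of Serpina1a, Serpina1c, Serpina1d, Serpina1e and Serpina3m lay within 2-fold of it on all 6. Near the top of the scanner's range a spot can stop rising with its RNA, saturation flags were not used here, and liver values of these 6 genes may be too low. Whether they were saturated was not tested. The copies also share most of their sequence, so a probe named for 1 copy may take up RNA of another. Serpina1a had 2 spots, and its difference in controls was -7.49 or -10.49 depending on the spot, while Serpina1e gave -7.56 or -9.20.

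The 5 copies share their promoter, which is shown because they were high together in liver. Each line gives 100 bases of the coding strand 5′ to 3′ from RefSeq on GRCm38.p6, aligned on a shared end upstream of the annotated start, with capitals at the positions where the 5 copies are not all the same.
Serpina1a: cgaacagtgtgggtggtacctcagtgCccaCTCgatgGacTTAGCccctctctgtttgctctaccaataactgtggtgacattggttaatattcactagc
Serpina1b: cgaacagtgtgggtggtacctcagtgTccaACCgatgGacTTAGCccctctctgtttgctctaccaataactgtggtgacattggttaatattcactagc
Serpina1c: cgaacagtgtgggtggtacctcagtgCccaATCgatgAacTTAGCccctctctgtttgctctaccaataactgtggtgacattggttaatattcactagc
Serpina1d: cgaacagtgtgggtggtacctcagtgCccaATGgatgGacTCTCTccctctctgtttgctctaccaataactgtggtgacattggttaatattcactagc
Serpina1e: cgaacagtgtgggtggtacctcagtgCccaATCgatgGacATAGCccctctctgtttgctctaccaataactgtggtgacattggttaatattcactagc

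They lie on the minus strand at chr12:103863625-103863724, chr12:103738200-103738299, chr12:103904962-103905061, chr12:103773634-103773733 and chr12:103956960-103957059, in the order printed. Of the 100 bases, 90 were the same in all 5 copies, 55 of them in 1 run, and pairs of copies were 93% to 98% identical.

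The Serpina3 genes, mouse relatives of alpha-1 antichymotrypsin, a plasma inhibitor of neutrophil and mast cell proteases, did not share a single pattern. Serpina3k, which codes for a plasma serpin that binds kallikrein, stood at 8.43, 8.23 and 8.42 on liver controls and at -2.74, -3.45 and -1.72 on lung controls. Its difference of -11.00 ± 0.42 (SE, adjusted p = 2.37e-06) was the lowest of any member in controls. Serpina3m, Serpina3j, Serpina3c and Serpina3h followed at -9.46, -8.70, -7.27 and -6.10. Serpina3n, the acute phase member, differed by -4.68 ± 0.39, Serpina3i by -2.20 ± 0.31, Serpina3f by -1.19 ± 0.35 and Serpina3b by -0.90 ± 0.19, all past the threshold in controls, although Serpina3f was not called without liver control 3 (-1.04). Serpina3g, which codes for SPI2A, an inhibitor of lysosomal cathepsins known from leukocytes, differed by -0.49 ± 0.20 in controls (adjusted p = 0.0576) and -0.55 ± 0.16 on acrylamide arrays (adjusted p = 0.0246). The control difference passed under 5 of 11 other settings, such as 1 fit of all 12 arrays (adjusted p = 0.0311), and without liver control 1 (-0.64) or lung control 6 (-0.62). The call on acrylamide arrays was lost with median scaling (-0.37), without liver acrylamide 27 (-0.42) or 29 (-0.53), and without lung acrylamide 28 (-0.49) or 30 (-0.55). The brightest spot of Serpina3a was above background on no liver array and was at least 3.29-fold higher in lung controls. The 3 spots named Serpina3a differed in direction, at 1.97, -2.26 and -3.61 lung minus liver, and the pair for Serpina3i at -2.20 and 0.61, so both genes are uncertain.

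Serpins that control clotting were liver genes on these arrays. Serpinc1, which codes for antithrombin, the main inhibitor of thrombin and factor Xa, stood at 8.44, 8.68 and 8.60 on liver controls and at -2.07, -2.18 and -1.40 on lung controls. It differed by -10.45 ± 0.23 (SE, adjusted p = 4.42e-07). Serpind1, for heparin cofactor II, another thrombin inhibitor, differed by -8.43 ± 0.29, and Serpinf2, for alpha-2 antiplasmin, the inhibitor of plasmin, by -10.03 ± 0.33. Serpina10, for the inhibitor of factor Xa that depends on protein Z, differed by -8.33 ± 0.22. Serpina5, for the protein C inhibitor, was near background: it was above it on all 3 liver controls and on 1 lung control, and differed by -3.67 ± 0.48. Serping1, for the C1 inhibitor of complement and contact activation, was high in both tissues, with 6.84 to 6.98 on liver controls and 4.10 to 4.63 on lung controls, and differed by -2.63 ± 0.18 (adjusted p = 2.44e-05). The listed proteases of these pathways were lower in lung too: 8 of 8 coagulation and contact proteases were lower in lung controls, with a median of -9.02, and 6 of 6 complement C1 and lectin proteases, with a median of -3.21.

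Serpine2, for protease nexin 1, an inhibitor of thrombin and urokinase at the cell surface, went the other way. It stood at 4.16 to 4.52 on lung controls and 0.09 to 0.75 on liver controls and differed by 3.94 ± 0.21 (adjusted p = 8.51e-06). Among 6 genes of the plasminogen system, 3 were higher in lung controls, the activators and receptor Plat (6.15), Plau (1.22) and Plaur (6.39), and 3 lower, Cpb2 (-9.59), Vtn (-8.04) and Plg (-7.32), plasminogen itself. Serpini1, for neuroserpin, which inhibits tissue plasminogen activator in neurons, was higher in lung controls by 1.74 ± 0.36. Serpine3, a little studied member, was lower by -3.26 ± 0.28.

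The members that inhibit no protease were split between the tissues. Serpina6, for the corticosteroid-binding globulin of plasma, stood at 5.96, 6.25 and 6.07 on liver controls and -4.66, -4.56 and -4.21 on lung controls, a difference of -10.57 ± 0.17 (SE, adjusted p = 2.70e-07). Serpina7, for the thyroxine-binding globulin, differed by -6.18 ± 0.44, and 4 of 4 other carriers on the list, Alb, Ttr, Gc and Rbp4, were lower in lung as well. Serpinf1, for the antiangiogenic factor PEDF, differed by -5.35 ± 0.17, and its 3 spots gave -5.35, -5.44 and -5.59. Serpinh1, for the collagen chaperone HSP47, stood at 5.37, 5.40 and 5.15 on lung controls against 2.25, 2.93 and 2.09 on liver controls and differed by 2.88 ± 0.24 (adjusted p = 6.43e-05). All 10 collagens listed as its clients were higher in lung controls, with a median of 3.08. Serpina12, for the adipokine vaspin, is not counted among these non-inhibitory members. It was above background on no lung array and at least 15.1-fold higher in liver controls.

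Clade B held most of the members that were higher in lung. Serpinb6b stood at 3.39, 3.77 and 3.97 on lung controls and -2.63, -2.58 and -2.30 on liver controls, and its difference of 6.21 ± 0.19 (SE, adjusted p = 1.19e-06) was the highest of any member. Serpinb6a, for an intracellular inhibitor of cathepsin G and other trypsin-like proteases, and its relatives Serpinb6c, Serpinb6d and Serpinb6e differed by 2.93, 3.00, 3.43 and 3.14. The other spots of Serpinb6a and Serpinb6c differed by 3.65 and 4.38, and as these relatives are alike in sequence, RNA of 1 may be read on the spot of another. Serpinb9, for the granzyme B inhibitor that protects cytotoxic lymphocytes from their own granules, stood at 2.17 to 2.76 on lung controls and -1.18 to -0.49 on liver controls and differed by 3.37 ± 0.24 (adjusted p = 3.29e-05). Serpinb1a, the mouse gene of the neutrophil elastase inhibitor of leukocytes, differed by 1.18 ± 0.25, and its relatives Serpinb1b and Serpinb1c by 3.13 and 1.83, Serpinb1b being above background on 1 of 3 liver controls. Serpinb10, known from blood-forming cells, was above background on no liver control and was at least 20.0-fold higher in lung controls. Serpinb2, for PAI-2, an inhibitor of urokinase in monocytes, was at least 2.88-fold higher in lung controls, a call lost in 1 fit of all 12 arrays (adjusted p = 0.172). On acrylamide arrays it was not called. Liver acrylamide 30 stood at -2.76 there, the other 5 liver arrays at -8.02 to -7.41, not above background, and lung acrylamide 28 at -7.38. Without liver acrylamide 30 the difference of Serpinb2 was 1.56 (adjusted p = 0.129).

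Several cell type lists differed between the tissues as well. In controls 7 of 9 T and NK cell markers, 5 of 6 tested neutrophil markers and 7 of 7 endothelial markers were higher in lung, with medians of 2.25, 3.54 and 3.11. The other 2 T and NK cell markers, Cd3e and Prf1, were called lower, as was 1 neutrophil marker, Csf3r (-0.61). Of 9 macrophage markers 2 were higher and 4 lower, with a median of -0.26. Their part in the lung levels of clade B was not tested.

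Clade B genes that were higher in liver were fewer. Serpinb8, for an intracellular inhibitor of furin and trypsin, stood at 4.95, 4.93 and 5.13 on liver controls against 2.79, 2.86 and 2.83 on lung controls, a difference of -2.18 ± 0.13 (SE, adjusted p = 1.27e-05). Its other spot was much dimmer and differed by -0.41. Serpinb3d was above background on no lung array and was at least 92.1-fold higher in liver controls. Serpinb9f, likewise not above background on lung arrays, was at least 7.31-fold higher in liver controls. Serpini2, a serpin of the exocrine pancreas, differed by -2.74 ± 0.37, or -1.80 with quantile scaling, and was above background on 3 of 3 liver and 1 of 3 lung controls. Of 7 pancreas markers 5 were tested, and 4 of these were lower in lung controls as well, with a median of -4.28, while Cpa1 differed by 0.38. Prss2 and Pnlip were not tested, each being above background on 1 of 3 liver and 1 of 3 lung controls. Serpinb12 and Serpinb3c were called lower in lung controls, at -3.58 and -1.58. The call of Serpinb12 was lost without lung control 5 (-3.06) or 6 (-3.48). The call of Serpinb3c was lost without liver control 1 (-1.38) or lung control 5 (-1.39) or 6 (-1.27), and in 1 fit of all 12 arrays (adjusted p = 0.149). On acrylamide arrays they were not called, at -1.48 and -0.45. Without lung acrylamide 29 the difference of Serpinb3c was -1.81 (adjusted p = 0.000252).

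Serpinb3a, Serpinb3c, Serpinb5, Serpinb11, Serpinb12 and Serpinb13 belong to stratified epithelia, where they guard keratinised cells, Serpinb5 coding for maspin and Serpinb13 for headpin. On the lung arrays 2 arrays stood apart in them. Serpinb3a stood at 0.39 on acrylamide 29 and -3.13 on control 4, and at -8.88 to -8.18 on the other 4 lung arrays. Serpinb5 stood at 0.11 on acrylamide 29 and -3.77 on control 4, and at -9.10 to -7.83 on the others. Serpinb11 stood at -2.17 and -5.91 on those 2 arrays and at -9.09 to -7.94 on the others. The squamous marker Krt5 stood at 2.31 on acrylamide 29, -0.47 on control 4 and -4.79 to -3.10 on the rest, and Krt13 at 1.15, -2.26 and -7.72 to -6.64. Krt14, Krt4 and Krt15 of the squamous list were also highest on these 2 arrays. Trp63 was not, at 1.77 and 1.70 against 1.64 to 1.91 on the rest. Nor was Dsg3, at -8.47 and -7.20 against -9.26 to -7.70. The acrylamide differences of these members in lung were among the 6 highest of the family, at 1.26 ± 2.87 for Serpinb3a, 1.04 ± 1.12 for Serpinb12, 1.03 ± 1.2 for Serpinb3c, 1.0 ± 1.98 for Serpinb11 and 0.98 ± 2.81 for Serpinb5, all with an adjusted p of 0.999. Without those 2 arrays Serpinb3c differed by 0.17 and Serpinb12 by 0.49, while Serpinb3a, Serpinb5 and Serpinb11 were above background on too few arrays to test.

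**Figure D3:**
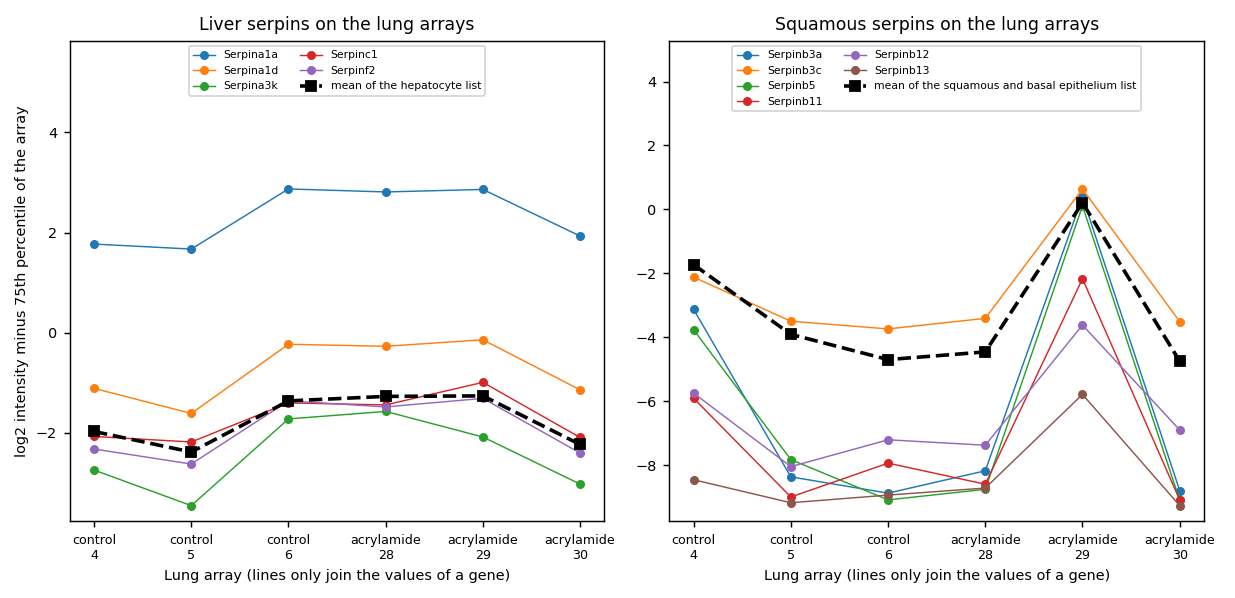
Levels of 5 liver serpins with the mean of 12 hepatocyte markers (left) and of 6 squamous serpins with the mean of 7 squamous markers (right) on the 6 lung arrays, as log2 intensity minus the array's 75th percentile. On the left the values are higher on control 6, acrylamide 28 and acrylamide 29 than on the other 3 arrays, and on the right they peak on acrylamide 29, where Serpinb3a stands at 0.39, and then control 4.

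Several plasma serpins also varied together between lung arrays. Serpina1a stood at 2.87, 2.81 and 2.86 on lung control 6 and acrylamide 28 and 29, and at 1.77, 1.67 and 1.93 on controls 4 and 5 and acrylamide 30. Serpina3k stood at -1.72, -1.57 and -2.08 on the first 3 and at -2.74, -3.45 and -3.02 on the others. Serpinc1 and Serpinf2 were split in the same way, with -1.40, -1.44 and -0.99 against -2.18 to -2.07, and -1.36, -1.48 and -1.31 against -2.62 to -2.32. Serpind1, Serpina10, Serpina7 and Serpinf1 were not split in this way. The 12 hepatocyte markers, all above background on all lung arrays, had means of -1.36, -1.27 and -1.26 on the first 3 arrays and -1.97, -2.38 and -2.23 on the others, and Alb stood at 4.21, 4.22 and 4.11 against 3.11, 3.10 and 3.05. Of the 3 arrays with more of this signal, 2 had acrylamide and 1 was a control. With acrylamide in lung, 19 of 23 tested clade A members were above 0, with a median of 0.33, where 48.4% of all genes were. The differences of Serpina1a (0.43 ± 0.41), Serpina3k (0.41 ± 0.55), Serpinc1 (0.38 ± 0.34) and Serpinf2 (0.37 ± 0.43) were close to their standard errors in size and none passed, and all 12 hepatocyte markers were above 0 too, with a median of 0.29. Their part in the serpin differences was not tested.

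Serpina9, for centerin, a serpin of germinal centre B cells, had the widest spread among lung controls outside the squamous members, with 1.55, 0.63 and -2.53 on controls and 0.24, 0.34 and -1.15 on acrylamide arrays. The mean of 7 club and airway cell markers was 7.77, 7.36 and 5.21 on the same controls and 6.82, 7.11 and 6.10 on the acrylamide arrays, so both were lowest on control 6 and next lowest on acrylamide 30. Within that list Scgb3a1 (7.44, 6.04 and -0.49 on controls 4, 5 and 6) and Bpifa1 (7.27, 5.79 and -1.31) fell most. Cbr2 (8.43, 8.48 and 8.44) and Scgb1a1 (8.2, 8.34 and 8.09) changed little. The mean of 7 striated muscle markers was also lowest on control 6, at 2.07, 0.74 and -1.1 on the controls. The pairing of Serpina9 with the airway list was chosen after its values were seen and was not tested. The mean of 6 B and plasma cell markers was -2.49, -0.96 and -0.76 on those controls and was not lowest on control 6.

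The second comparison asked what acrylamide did in liver. No serpin passed the test: limma called 0 of 50 tested members and 0.0% of 21076 genes at adjusted p under 0.05. At an unadjusted p under 0.05 there were 2 members, Serpina3g and Serpinh1, against 6.12% of all genes. The members' median was 0.01 log2 units, against -0.02 over all genes, and 26 of 50 were above 0, where 46.8% of all genes were. Groups did not overlap at all for 1 member that was higher and 1 that was lower, against 5.43% and 6.78% of all genes. These were the same members whose groups were apart with at least 1.5-fold between their means, as held for 1.79% of all genes higher and 1.97% lower. The members' share was 2.0% in each direction.

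Serpina3g was the member that was higher. It stood at 1.27, 1.05 and 0.76 on liver acrylamide 27, 29 and 30 and at 0.10, 0.58 and 0.46 on controls 1, 3 and 4, a difference of 0.65 ± 0.21 log2 units or 1.57-fold (SE, adjusted p = 0.782). In lung it stood at 0.38, 0.58 and 0.48 on acrylamide arrays and -0.35, -0.12 and 0.13 on controls, a difference of 0.60 ± 0.15 or 1.51-fold (adjusted p = 0.96). In neither tissue did the groups overlap, and the value stayed between 0.43 and 0.78 under every alternative in both tissues, with no adjusted p below 0.136. Macrophage markers were also higher on average with acrylamide in both tissues. Their mean over 9 genes was 1.99, 1.87 and 1.60 on liver acrylamide arrays against 1.42, 0.92 and 1.51 on liver controls, and -0.20, -0.14 and 0.21 on lung acrylamide arrays against -0.75, -0.13 and -0.07 on lung controls, so the list overlapped in lung only. In liver all 9 markers were above 0 and in lung 8 of 9, with medians of 0.46 and 0.30 and none called. Array by array the 2 did not keep the same order: liver control 3 had the highest Serpina3g value of the liver controls, 0.58, and the lowest macrophage mean, 0.92. The part of macrophage markers in the Serpina3g difference was not tested.

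The promoter of Serpina3g is shown beside those of Serpina3f, Serpina3i and Serpina3n, a choice made after the values were seen. These 4 hold a match to 1 or both of the motifs named next, and so do other members that are not shown. Serpina3j and Serpina3b, also on chromosome 12, were above 0 with acrylamide in both tissues too, at 0.34 and 0.18 in liver and 0.35 and 0.05 in lung, and are not shown. Each line gives 85 bases of the plus strand from RefSeq on GRCm38.p6, ending on a shared stretch, with capitals on matches to TTCNNNGAA, the core known for STAT factors, and to a form of the kappa B site, GGG and TTTCC with 2 free bases between them.
Serpina3g: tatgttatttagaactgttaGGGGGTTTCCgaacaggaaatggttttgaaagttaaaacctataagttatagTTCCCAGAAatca
Serpina3f: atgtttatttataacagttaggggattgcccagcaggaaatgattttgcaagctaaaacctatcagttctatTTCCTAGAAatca
Serpina3i: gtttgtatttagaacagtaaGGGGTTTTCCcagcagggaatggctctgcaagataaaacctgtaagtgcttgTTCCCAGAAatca
Serpina3n: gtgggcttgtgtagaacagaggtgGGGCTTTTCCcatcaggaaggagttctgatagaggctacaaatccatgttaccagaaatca

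They lie at chr12:104236042-104236126, chr12:104214351-104214435, chr12:104262948-104263032 and chr12:104406513-104406597, in the order printed. Serpina3g and Serpina3i held both motifs, Serpina3f the first and Serpina3n the second. Within 250 bases before the start, Serpina11, Serpina1f, Serpinb2, Serpinb6a and Serpinb9c also held the first motif and are not shown. With acrylamide, Serpina11, Serpina1f and Serpinb6a differed by -0.33, 0.02 and 0.25 in liver and by 0.07, 0.07 and 0.09 in lung. Serpinb2 differed by -0.45 in lung, and Serpinb9c entered no test. Searched on both strands of the 250 bases before the start, TTCNNNGAA occurred in 8 of 52 members and the kappa B form in 3 of 52, counted by gene. Counted by promoter, they occurred in 7.02% and 1.41% of 32851 promoters of 27025 genes. As a gene can have more than 1 promoter, the members' counts cannot be set directly against these shares. In liver Serpina3f, Serpina3i and Serpina3n differed by 0.20 ± 0.19, 0.23 ± 0.26 and 0.38 ± 0.26 log2 units with acrylamide, and in lung by 0.57 ± 0.33, 0.33 ± 0.25 and 0.57 ± 0.37, none passing. Serpina3n stood at 3.21, 2.92 and 2.45 on liver acrylamide arrays and 2.69, 2.12 and 2.63 on liver controls, so the groups overlapped. The other spot of Serpina3i differed by -1.12 in liver and -0.33 in lung.

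Serpinh1 was the member that was lower in liver. It stood at 1.52, 1.35 and 1.95 on acrylamide 27, 29 and 30 and at 2.25, 2.93 and 2.09 on controls 1, 3 and 4, a difference of -0.82 ± 0.28 log2 units (SE, adjusted p = 0.782). Its other, much dimmer spot differed by 0.15, and the mean of both spots by -0.33. In lung its groups overlapped, with a difference of -0.09 ± 0.10. The difference between the tissues was 0.73 ± 0.31 (adjusted p = 0.994). Of its 10 listed collagen clients, 8 were below 0 in liver with a median of -0.44, led by Col1a1 at -1.37, Col3a1 at -0.63 and Col1a2 at -0.58, and none was called. Fibroblast and stellate cell markers were also lower with acrylamide in liver. Their means were 1.3, 1.43 and 1.34 on acrylamide arrays against 1.82, 2.05 and 1.60 on controls, with 8 of 8 markers below 0. That list shares collagens with the client list, and its part in the Serpinh1 difference was not tested.

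**Figure D4:**
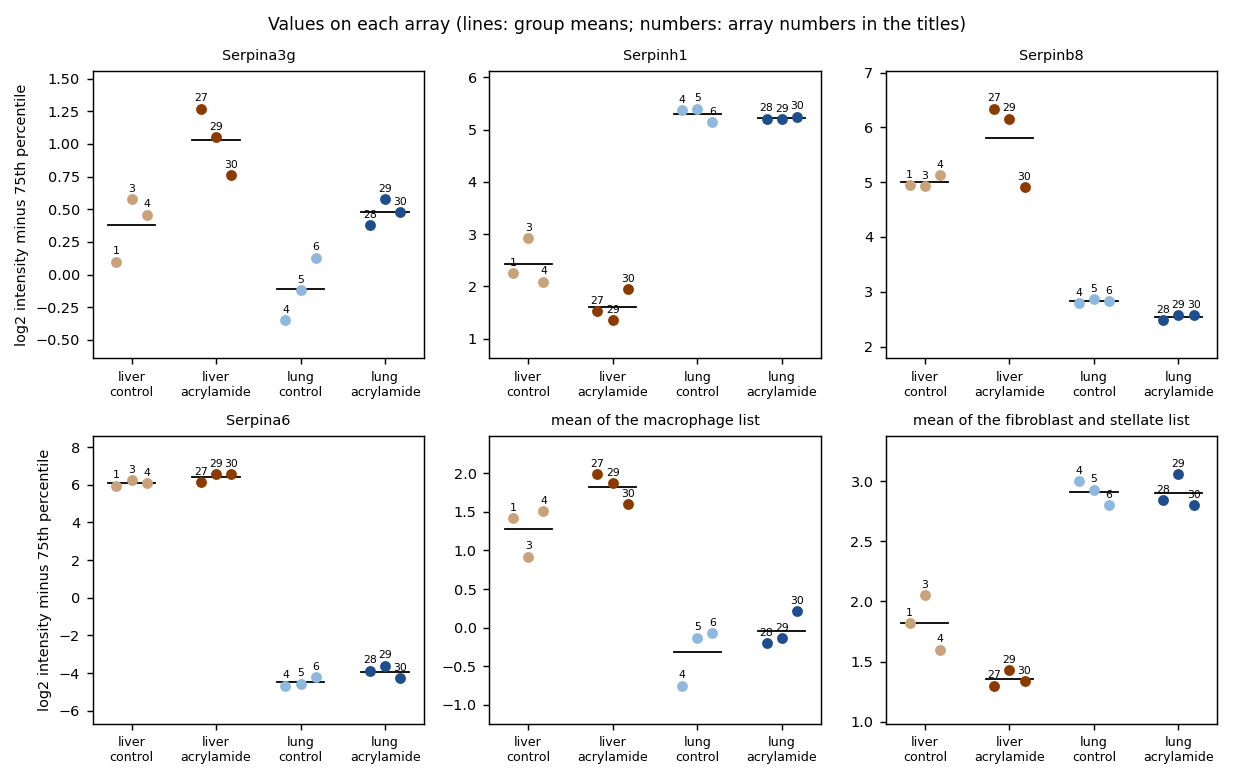
Values on each array of Serpina3g, Serpinh1, Serpinb8 and Serpina6 and the means of the macrophage and fibroblast marker lists, as log2 intensity minus the array's 75th percentile, with group means as lines and array numbers beside the points. Serpina3g is higher on all 3 acrylamide arrays than on all 3 controls in each tissue, and Serpinh1 is lower in liver, where the macrophage and fibroblast lists are also apart.

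Serpinb8 differed by 0.80 ± 0.39 log2 units in liver (SE, adjusted p = 0.782). It stood at 6.34 and 6.16 on acrylamide 27 and 29 and at 4.91 on acrylamide 30, where it lay below all 3 controls. In lung it stood at 2.48, 2.58 and 2.57 on acrylamide arrays and 2.79, 2.86 and 2.83 on controls, without overlap, a difference of -0.29 ± 0.09 (adjusted p = 0.964). The difference between the tissues was -1.09 ± 0.43 (adjusted p = 0.994). Without liver acrylamide 30 it was -1.53 (adjusted p = 0.00726), and with arrayWeights, which weights arrays by their spread, -1.41 (adjusted p = 0.0274), so the call turned on that array. Acrylamide 27 and 29 are also the liver arrays with the higher mean of alveolar type 2 markers. Among these, Sftpc stood at 2.63 and -0.65 on them and -7.45 to -5.60 on the other liver arrays. Sftpb and Sftpa1 were also highest on them. Slc34a2 was not, at -7.82 and -5.39 against -7.61 to -4.94, nor was Abca3, at 5.44 and 5.54 against 5.58 to 6.01. The part of these markers in the Serpinb8 difference was not tested. The dimmer spot of Serpinb8 differed by 0.19 in both tissues.

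The other members named for the size of their liver difference were mostly dim or set by 1 array. Serpina12 had the largest liver difference, 1.60 ± 1.02 log2 units, as acrylamide 30 stood at -1.08 and the other 5 arrays at -5.84 to -3.48. Serpinb9f was above background on all 3 controls, at -5.87, -5.59 and -5.78, and on no acrylamide array, at -7.81, -7.24 and -5.54, and was at least 1.5-fold lower there, although acrylamide 30, with its high limit, overlapped the controls. Serpinb12 differed by -1.06 ± 0.95, with control 1 at -1.12 and the other 5 arrays at -4.83 to -4.15, and Serpina5 by -0.66 ± 0.46. Serpinb6e and Serpinb3a differed by 0.60 ± 0.34 and 0.53 ± 0.37, and Serpina11 and Serpina9 by -0.33 ± 0.17 and -0.32 ± 0.58. The 5 alpha-1 antitrypsin copies differed by -0.14 to -0.03, with acrylamide 30 above and acrylamide 27 and 29 below all controls. For Serpina1b, acrylamide 30 minus the control mean was 0.56 after scaling and -0.05 before it, and this array had the lowest 75th percentile.

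The clotting and hormone-carrying serpins of liver did not pass the test. Serpinc1, Serpind1, Serpinf2 and Serping1 differed by -0.13 ± 0.15, 0.11 ± 0.13, -0.21 ± 0.16 and -0.04 ± 0.13. Serpina6 stood at 6.12, 6.57 and 6.57 on acrylamide arrays and 5.96, 6.25 and 6.07 on controls, a difference of 0.33 ± 0.18 (adjusted p = 0.782) with overlap through acrylamide 27.

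**Figure D5:**
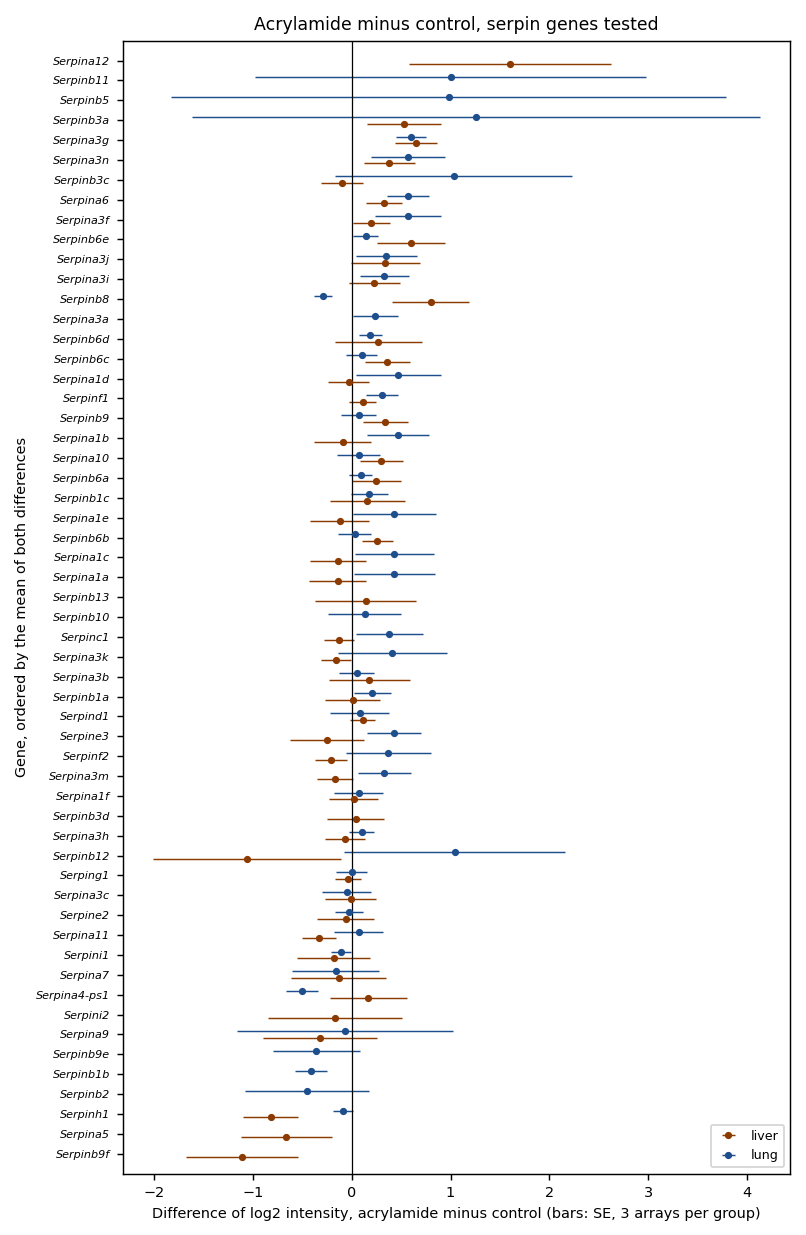
Acrylamide minus control difference in log2 intensity for the tested serpin genes in liver (brown) and in lung (blue), with bars for the SE over 3 arrays per group. Most bars cross or come close to 0, Serpina3g lies near 0.6 in both tissues, and the squamous members such as Serpinb3a have the longest bars in lung.

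The third comparison was acrylamide against control in lung, where no serpin passed either. Limma called 0 of 51 tested members and 0.0% of 22226 genes. At an unadjusted p under 0.05 there were 5 members, 2 higher and 3 lower, against 4.95% of all genes, 1.85% higher and 3.1% lower. The members' median was 0.18 log2 units against -0.01 over all genes, and 40 of 51 were above 0, where 48.4% of all genes were. That median was 0.05 without lung acrylamide 29 and lung control 4, and 0.08 and 0.33 within the arrays whose title has 1 or 2 after its first number. The only control in the first of these sets is control 5, and the only acrylamide array in the second is acrylamide 29. Groups did not overlap for 2 members that were higher and 3 that were lower, against 4.11% and 6.8% of all genes. Groups did not overlap with at least 1.5-fold between them for 1 member, Serpina3g, where 0.706% of all genes were higher in this way, and for 0 members that were lower, against 0.895%.

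Serpina6 differed by 0.57 ± 0.21 log2 units in lung (SE, adjusted p = 0.999), from -3.86, -3.60 and -4.28 on acrylamide arrays against -4.66, -4.56 and -4.21 on controls, which overlapped. Without lung acrylamide 29 and lung control 4 together the Serpina6 difference was 0.32. Serpina3f was higher without overlap, at -2.30, -2.07 and -2.23 against -3.53, -2.35 and -2.44, although control 4 set its size: without it the difference was 0.19. Serpina4-ps1, a transcribed pseudogene, was lower without overlap, at -7.43, -7.91 and -7.39 against -7.02, -7.08 and -7.14, a difference of -0.50 ± 0.16 (adjusted p = 0.964) that was -0.33 without acrylamide 29 and -0.30 without control 4 as well. Among the arrays whose title has 1 or 2 after its first number, Serpina4-ps1 differed by -0.33 and -0.83. The first value rests on control 5 as the only control, and the second on acrylamide 29 as the only acrylamide array. Serpinb1b was also lower without overlap, at -4.83, -4.52 and -4.49 against -4.31, -4.34 and -3.96, a difference of -0.41 ± 0.16 (adjusted p = 0.999). Serpinb2, Serpinb9e and Serpina7 differed by -0.45 ± 0.63, -0.36 ± 0.44 and -0.16 ± 0.44. Several inhibitors with steady lung levels differed little: Serpinb6a differed by 0.09 ± 0.12, Serpinb9 by 0.07 ± 0.18, Serpine2 by -0.03 ± 0.14, Serping1 by 0.00 ± 0.16 and Serpinh1 by -0.09 ± 0.10.

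The difference between the tissues in their acrylamide differences was called for 0 of 58 members and 0.0% of 23283 genes. At an unadjusted p under 0.05 there were 2 members, Serpinb8 and Serpinh1, against 4.44% of all genes. For Serpina3g the difference between the tissues was -0.05 ± 0.26 log2 units (adjusted p = 0.995).

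The other genes of the pathway, 85 proteases, other inhibitors, collagens and regulators, were not called either with acrylamide: 0 of 80 tested in liver and 0 of 83 in lung, with medians of -0.10 and 0.11. Lung against liver in controls, 30 of 82 were higher and 43 lower, where 32.0% of all genes were higher and 42.4% lower. Of 21 tested inhibitors outside the serpins, 13 were lower in lung controls, led by the alpha-macroglobulins Mug1 (-10.76) and Pzp (-10.19), Hrg (-9.94) and Ambp (-9.71), and 8 were higher. Among leukocyte proteases, a list not limited to targets of serpins, 7 of 14 were higher in lung controls, with Gzma, a granzyme, at 3.52 and Ctsk at 5.19. In the same list 5 were lower, with Ctsg, cathepsin G, at -3.29. With acrylamide, the mast cell and basophil protease Mcpt8 had the largest difference of that list in both tissues, 1.51 in liver and -1.11 in lung, neither called.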

How the data were processed

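Each deposited file lists 62976 spots with a linear Cy3 intensity, for which the submitters' processing notes name Agilent Feature Extraction, version 10.7. The sources used here do not say whether background had been subtracted. The authors' value table, equal to these intensities times a factor for each array, served as an alternative. Levels were log2 intensity less the 75th percentile of the array, without 1319 control spots. Symbols came through Entrez number (38054 spots), accession (715) or the file (2242), and 20646 spots stayed unnamed. Each gene was read from its spot with the highest mean, and genes above background on at least 3 arrays of a fit were tested with limma 3.58.1 (lmFit, eBayes) in R 4.3.3, with Benjamini-Hochberg adjustment over all genes at 0.05. Groups were fitted within each comparison, and the difference between tissues over all 12 arrays. A gene not above background on any array of 1 group is given as a lower bound of the fold: the bright group's mean against, per array, the higher of the dim spot and the lowest signal above background. The scripts were tested on simulated data. The number of arrays, 3 per group, limits the precision, and arrays give no read depth.

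The members and all gene lists were chosen with earlier results of these data known. The naming rule took the 6 largest differences in each direction per tissue, the 8 brightest members per tissue, and members whose groups did not overlap with at least 1.5-fold. The number after the first in the titles (1 or 2), whose meaning the labels do not give, was used as a block in an alternative. Alternatives were other scalings, filters, spot rules, weights, an intensity trend, 1 fit of all 12 arrays, blocks, the arrays of 1 such number and arrays left out in turn. Leaving out lung acrylamide 29 and lung control 4 together was added after the data were seen. Values of 1 member are not reported here, although it is part of the counts.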

Additional observations from a re-analysis of the deposited data

How the results depend on the processing

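Over the alternatives, leaving out arrays included, 9 to 16 members were called higher in lung and 26 to 41 lower, and the smallest of these, 9 on acrylamide arrays, came with the filter that asked for signal above background on every array, which tests fewer genes. The share of all calls that were higher in lung was 43.1% in controls, 51.1% with quantile scaling and 48.9% with median scaling. No member was called for acrylamide within liver or within lung under any alternative. Over all genes, the liver fit called 2 genes in 1 fit of all 12 arrays, and 0 to 1 with an array left out. The difference between tissues called 139 genes with arrayWeights, among them 1 member, Serpinb8, and 0 to 136 with an array left out, of which 0 to 2 were members. The 136 came without liver acrylamide 30 and included Serpinb8 (-1.53) and Serpinb9f (1.94). The cause was not tested. Serpinb9f was above background on the 3 liver controls and on no other array, so it entered that fit only through the group where it is high. Its value therefore holds no measured difference in lung. Serpinb3c, lung minus liver on acrylamide arrays, turned from -0.45 to 0.21 and 0.26 without lung acrylamide 28 and 30, and was -1.81 without lung acrylamide 29. The tissue marker gap was 16.38 to 16.79 log2 units with an array left out. Groups of a tissue comparison share title numbers, but the labels do not say that a number marks an animal, and same-numbered arrays did not deviate together (r = -0.16 to 0.01 over 3 pairs). With the title number as a replicate block, 16550 genes were called in controls and 16284 on acrylamide arrays, against 16689 and 16105 without it, and 0 for the difference between tissues. Spots near background and the brightest liver spots give the least certain differences.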
